A study of Drosophila melanogaster with 10 samples.

Results

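The regions described here are the places in the Drosophila genome where the peak lists of Shep and of Mod(mdg4)2.2 met and no Rump peak was present. They were found by merging all peaks of the 5 deposited lists that overlapped by 1 bp or more. The merged regions that held at least 1 Shep and 1 Mod(mdg4)2.2 peak and no peak of Rump were then chosen by that content alone. There were 296 such regions among 5224 merged regions, and they are called the shared regions below. The presence of Su(Hw) or CP190 was not asked for. Their peaks did take part in the merging, however, and 36 of the 296 regions hold Shep and Mod(mdg4)2.2 peaks that do not overlap and were joined only through a Su(Hw) or CP190 peak. Such a region has at least 1 of these proteins by construction, and values without the 36 are given where the result rests on them. Each shared region falls into 1 of 4 states: neither of these 2 proteins (134 regions), Su(Hw) without CP190 (35), CP190 without Su(Hw) (68), or both (59). The series is a ChIP-seq study of Kc167 cells, an established line from Drosophila embryos, with 10 libraries and no treatment or genotype contrast. Shep was precipitated with a guinea pig and a rabbit antibody, Mod(mdg4)2.2 likewise, and Rump with the antibodies 10c3 and 5g4, while Su(Hw) and CP190 had 1 rabbit antibody each. All came from chromatin preparation a with its input, except CP190, which came from preparation b with its own input. The authors deposited 1 list per protein, so that the 2 antibodies of a protein cannot be compared and no replicate exists for any value below.

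Shep, encoded by the gene alan shepard, binds RNA through RNA recognition motifs and is known to counteract the gypsy chromatin insulator in the nervous system. Mod(mdg4)2.2 is a BTB-domain isoform of the mod(mdg4) gene and a core protein of that insulator, which it joins through Su(Hw), whose zinc fingers recognise DNA directly. CP190 is a further BTB and zinc-finger protein found at gypsy-type and at several other classes of Drosophila insulator. Rump, the product of rumpelstiltskin, is a fly relative of the vertebrate splicing and RNA-binding factor hnRNP M. The lists come from separate precipitations of a population of cells, so peaks in 1 region need not mark proteins on the same DNA molecule.

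Depth could not be stated, since the lists carry no read numbers. The shared regions took up 314 of the 1443 Shep peaks (21.8%), 323 of the 2678 Mod(mdg4)2.2 peaks (12.1%), 96 of the 2369 Su(Hw) peaks (4.05%) and 130 of the 2742 CP190 peaks (4.74%). A single Shep peak was present in 279 of the 296 regions (94.3%) and a single Mod(mdg4)2.2 peak in 271 (91.6%). The largest numbers were 3 Shep peaks and 4 Mod(mdg4)2.2 peaks. More than 1 Mod(mdg4)2.2 peak was found in 15 of the 59 regions with Su(Hw) and CP190, against 1 of the 134 regions with neither. The former are wider through the merging (median 2565 bp against 484 bp) and so can gather more peaks. Intervals below are 95% intervals (Wilson for shares, Newcombe for differences of shares, binomial order statistics for medians), and they cover counting error only.

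The shared regions stood between the 2 kinds of region that hold only one of their defining proteins. Su(Hw) was present in 94 of the 296 shared regions (31.8%, 26.7 to 37.3), which is fewer than at Mod(mdg4)2.2 regions without Shep and Rump (68.0% of 1841, 65.8 to 70.0) and more than at Shep regions without Mod(mdg4)2.2 and Rump (4.78% of 1046, 3.64 to 6.25). The difference was -36.2 percentage points (-41.7 to -30.3) against the former and 27.0 points (21.7 to 32.6) against the latter. CP190 was present in 127 shared regions (42.9%, 37.4 to 48.6), against 57.4% of Mod(mdg4)2.2 regions without Shep (difference -14.5 points, -20.5 to -8.38) and 19.0% of Shep regions without Mod(mdg4)2.2 (difference 23.9 points, 17.8 to 30.0). With every peak resized to 300 bp the levels were lower, at 17.1% for Su(Hw) and 29.2% for CP190, and all 4 differences kept their sign. Su(Hw) and CP190 peaks are wide, with medians of 2106 and 2025 bp, so that they can join Shep and Mod(mdg4)2.2 peaks that lie apart. Without the 36 regions joined in that way, 26.5% of 260 held Su(Hw) (21.5 to 32.2) and 38.1% held CP190 (32.4 to 44.1). The differences were then -41.4 points (-46.8 to -35.3) and 21.8 points (16.6 to 27.6) for Su(Hw), and -19.3 (-25.5 to -12.9) and 19.1 (12.8 to 25.5) for CP190.

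The gap to the other Mod(mdg4)2.2 regions lay mostly in Su(Hw). Regions with neither Su(Hw) nor CP190 made up 45.3% of the shared regions (39.7 to 51.0) and 16.2% of the Mod(mdg4)2.2 regions without Shep (difference 29.1 points, 23.2 to 35.0). The complete combination with both proteins made up 19.9% (15.8 to 24.9) and 41.6% (difference -21.6 points, -26.4 to -16.2). Su(Hw) without CP190 was less frequent in the shared regions (11.8% against 26.4%, difference -14.6 points, -18.4 to -9.96). CP190 without Su(Hw) went the other way, at 23.0% against 15.9% (difference 7.11 points, 2.35 to 12.5). That excess is split by Mod(mdg4)2.2 score below. Within the shared regions CP190 went with Su(Hw), at 59 of 94 regions with Su(Hw) (62.8%, 52.7 to 71.9) and 68 of 202 without it (33.7%, 27.5 to 40.4). The first of these shares lay near that of the Mod(mdg4)2.2 regions without Shep (61.2% of 1251), whereas the second was below it (49.5% of 590, 45.5 to 53.5).

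**Figure D1:**
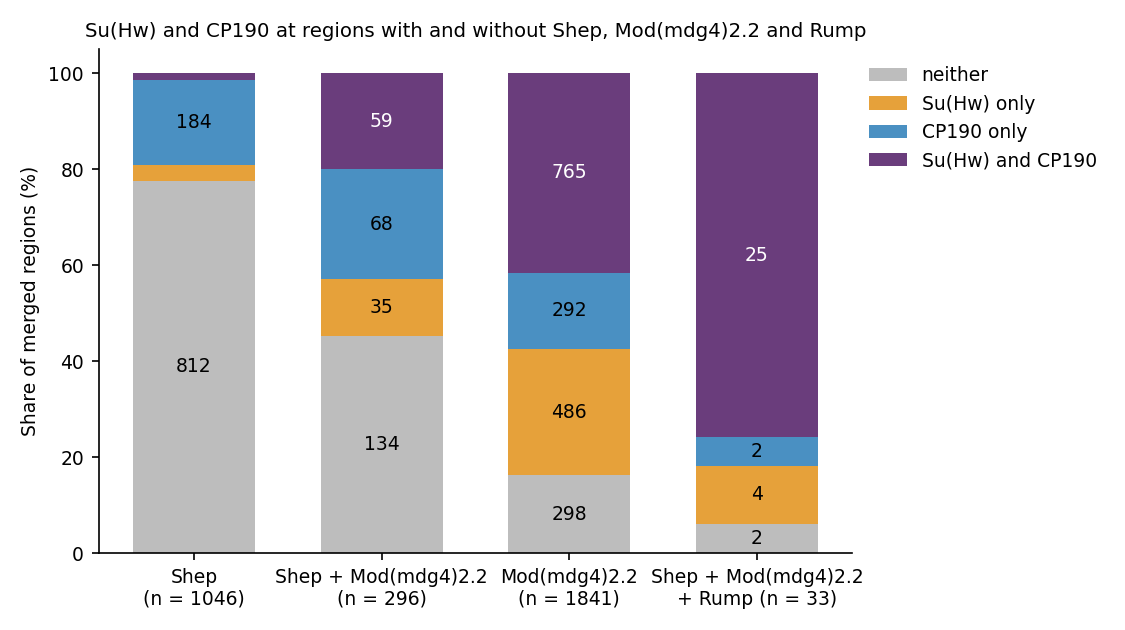
Bars give the share of merged regions (%, vertical axis) in each state of Su(Hw) and CP190 for 4 kinds of region on the horizontal axis, the first 3 of them without Rump, with numbers of regions written in the larger segments. Regions with neither protein make up 77.6% of regions with Shep alone of the defining pair, 45.3% of those with Shep and Mod(mdg4)2.2 and 16.2% of those with Mod(mdg4)2.2 alone of the pair.

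Read from the side of each protein, the states sorted in opposite order. Of the 946 Shep regions without Rump that had neither Su(Hw) nor CP190, 134 held Mod(mdg4)2.2 (14.2%, 12.1 to 16.5). The share was 68 of 252 with CP190 only (27.0%, 21.9 to 32.8), 35 of 70 with Su(Hw) only (50%, 38.6 to 61.4) and 59 of 74 with both (79.7%, 69.2 to 87.3). Thus most Shep regions with the other 2 insulator proteins were Mod(mdg4)2.2 regions too. The share of all regions of a state that hold Mod(mdg4)2.2, or Shep, is not given here. Whether the shares in this paragraph lie above or below it therefore cannot be said. The Shep and Mod(mdg4)2.2 peaks overlapped directly in 42 of those 74, in 27 of the 70 and in 57 of the 252. With the joined regions left out of the totals as well, the 4 shares were 14.2% of 946, 23.7% of 241, 43.5% of 62 and 73.7% of 57. Of the 432 Mod(mdg4)2.2 regions without Rump that had neither, in contrast, 134 held Shep (31.0%, 26.8 to 35.5). Shep was in 68 of 360 with CP190 only (18.9%, 15.2 to 23.3), in 35 of 521 with Su(Hw) only (6.72%, 4.87 to 9.20) and in 59 of 824 with both (7.16%, 5.59 to 9.13). The intervals of the last 2 states overlapped. The regions that Rump removes from the set were mostly of the complete state. Among regions with Shep and Mod(mdg4)2.2 of any Rump status, Rump was in 25 of 84 with both proteins (29.8%, 21.0 to 40.2), in 4 of 39 with Su(Hw) only (10.3%), in 2 of 70 with CP190 only (2.86%) and in 2 of 136 with neither (1.47%, 0.404 to 5.20).

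The deposited peak score, the authors' signal value on a scale not given in the sources used here, describes how the members differ among themselves. It comes from the same peak calls as the choice of regions, and so the values are given without a test. The highest Shep score in a shared region ranged from 82.8 to 265, with a median of 123 (quartiles 99.8 and 159). The highest Mod(mdg4)2.2 score ranged from 45.9 to 350.3, with a median of 76.3 (quartiles 56.0 and 106). Placed within its own list, the median shared region stood at percentile 65.2 of Shep scores and at percentile 36.5 of Mod(mdg4)2.2 scores. The shared regions were thus high in Shep and low in Mod(mdg4)2.2. In 149 of the 296 (50.3%) the Shep score was in the upper 50% of its list and the Mod(mdg4)2.2 score in the lower 50% of its own, and in 34 (11.5%) the reverse held. Of the 149, 89 were regions with neither Su(Hw) nor CP190. Regions with both went the other way, with median percentiles of 46.9 for Shep and 69.0 for Mod(mdg4)2.2. Among those 59, 10 had the first combination and 23 the reverse. Of the 314 Shep peaks in these regions, 253 (80.6%, 75.8 to 84.6) had a q of at most 0.05, against 68.5% of the whole Shep list.

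The 2 scores moved apart across the states. Shep scores were highest with neither Su(Hw) nor CP190 (median 132, interval 123 to 145) and lowest with both (median 105, 95.5 to 119.7), with Su(Hw) only (128) and CP190 only (121) between them. Mod(mdg4)2.2 scores were lowest with neither (median 65.5, 60.2 to 72.2) and with CP190 only (66.6), somewhat higher with Su(Hw) only (82.7, 62.0 to 104) and highest with both (161, 120.3 to 202). In 15 of the 59 regions with both, that score was the highest of several Mod(mdg4)2.2 peaks. None of the 134 regions with neither protein had a Mod(mdg4)2.2 score in the top quartile of that list, so that a count of 0 allows a share of up to 2.24% (3 counts of the total), while 27 of the 59 with both did (45.8%, 33.7 to 58.3). In the top quartile of the Shep list were 65 of the 134 regions with neither (48.5%, 40.2 to 56.9) and 14 of the 59 with both (23.7%, 14.7 to 36.0). Without the joined regions, 42 regions with both remained, with median scores of 111 for Shep (96.7 to 130.5) and 159 for Mod(mdg4)2.2 (112 to 199). Of these, 28.6% (17.2 to 43.6) were in the top Shep quartile and 42.9% (29.1 to 57.8) in the top Mod(mdg4)2.2 quartile. The Shep intervals of both and neither then overlapped, for the median and for the top quartile. Within a state the 2 scores were hardly related, with a Spearman rho across regions of -0.01 with neither (n = 134), 0.04 with Su(Hw) only (n = 35), -0.01 with CP190 only (n = 68) and -0.14 with both (n = 59). Over all 296 regions rho was -0.13. These regions share their 2 peak lists and are not independent replicates.

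The shared regions were then set beside regions of the same state that lack the partner. With neither protein, the Shep score had a median of 132 (123 to 145) with Mod(mdg4)2.2 and of 103 (101 to 106) without it, and the Mod(mdg4)2.2 score had a median of 65.5 (60.2 to 72.2) with Shep and of 57.6 (55.4 to 59.3) without it. In that state each protein's score was therefore higher where the other's peak was present. With CP190 only, the Shep score was 121 (111 to 132) with and 108 (103 to 112) without Mod(mdg4)2.2, and the Mod(mdg4)2.2 score was 66.6 (60.3 to 80.1) with and 68.7 (64.5 to 73.8) without Shep. With Su(Hw) only, the Shep score was 128 (113 to 148) with and 112 (97.2 to 121) without Mod(mdg4)2.2, and the Mod(mdg4)2.2 score was 82.7 (62.0 to 104) with and 91.5 (86.5 to 103) without Shep, with overlapping intervals for both proteins. Where both proteins were present the intervals overlapped for Shep (105 against 108) and for Mod(mdg4)2.2 (161, 120.3 to 202, against 159, 150.1 to 164).

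**Figure D2:**
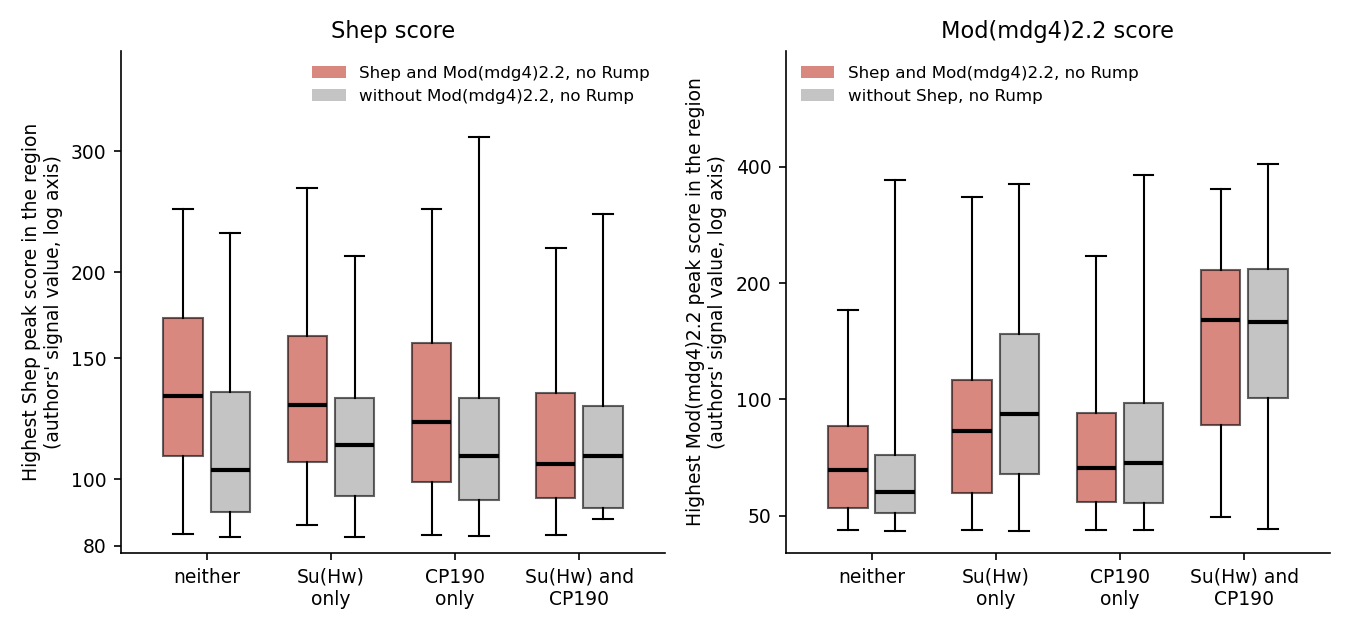
Box plots of the highest Shep score (left) and the highest Mod(mdg4)2.2 score (right) in a region, on log axes in the authors' signal units, by state of Su(Hw) and CP190, for shared regions (red) and for regions without the partner protein (grey), all without Rump. Boxes span the quartiles, the line is the median and whiskers reach the lowest and highest value. Medians of the red boxes go down from 132 to 105 for Shep and up from 65.5 to 161 for Mod(mdg4)2.2 between the states neither and both. Without the joined regions, which the plot includes, the medians with both are 111 and 159.

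Since Mod(mdg4)2.2 scores were low in the shared regions, the shares of Su(Hw) and CP190 were also compared within quartiles of the Mod(mdg4)2.2 list, a comparison added after the scores had been seen. Su(Hw) was at 15.2% of 105 shared regions in the lowest quartile, 21.7% of 106 in the second, 44.0% of 50 in the third and 94.3% of 35 in the highest. Mod(mdg4)2.2 regions without Shep had Su(Hw) at 34.6%, 58.4%, 86.9% and 95.7% in the same quartiles. The shared regions were lower by 19.4 to 42.9 points in the first 3 quartiles, where the differences were -19.4 (-26.6 to -10.3), -36.7 (-44.7 to -26.8) and -42.9 points (-56.0 to -28.9). In the highest quartile the difference was -1.45 points (-14.5 to 3.46), and most regions there held Su(Hw) with or without Shep. Weighted by the number of shared regions in each quartile, the difference in Su(Hw) was -27.4 points. For CP190 it was -8.62 points, and by quartile -4.20 (-13.5 to 6.15), -14.4 (-23.9 to -3.93), -14.1 (-28.2 to -0.439) and 3.31 (-12.7 to 13.4). For CP190 without Su(Hw) the weighted difference was 4.01 points. By quartile it was 2.38 (-6.44 to 12.4), 0.873 (-6.92 to 10.3), 15.7 (5.15 to 29.4) and 1.74 (-3.14 to 14.7), so only the third interval lay above 0.

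Along the Shep score the shares ran the other way. Su(Hw) was at 47.2% of the 36 shared regions in the lowest Shep quartile, 38.3% of 60, 31.8% of 85 and 23.5% of 115 in the highest. CP190 was at 55.6%, 56.7%, 42.4% and 32.2%. The lowest quartile exceeded the highest by 23.7 points for Su(Hw) (6.28 to 40.9) and by 23.4 points for CP190 (5.05 to 40.2). These values include the 36 joined regions, which hold Su(Hw) or CP190 by construction and had low Shep scores. How much of the fall is due to the merging was not tested. Without them Su(Hw) was at 35.7% of 28, 26.7% of 45, 30.3% of 76 and 21.6% of 111, and CP190 at 50%, 48.9%, 38.2% and 30.6%. The differences between the lowest and the highest quartile were then 14.1 points (-3.17 to 33.7) and 19.4 points (-0.239 to 38.4), and both intervals included 0. Both values lay inside the intervals found with the joined regions. Shep regions without Mod(mdg4)2.2 had Su(Hw) at 3.62% to 7.09% and CP190 at 14.9% to 21.7% over the 4 quartiles. The excess of the shared regions over them stayed above 0 in every Shep quartile without the joined regions, at 31.8 (16.5 to 50.3), 23.0 (12.0 to 37.5), 23.2 (13.2 to 34.5) and 16.9 points (9.43 to 25.7) for Su(Hw) and at 35.1 (17.1 to 52.8), 27.1 (12.3 to 41.9), 17.7 (6.24 to 29.8) and 11.5 points (1.93 to 21.6) for CP190. The merging also keeps the joined regions out of the comparison group, although their Shep peaks overlap no Mod(mdg4)2.2 peak. With single Shep peaks as the unit, which counts them there, the excess over all quartiles was 20.5 points (15.2 to 26.3) for Su(Hw). For CP190 it was 16.7 points (10.6 to 23.0).

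**Figure D3:**
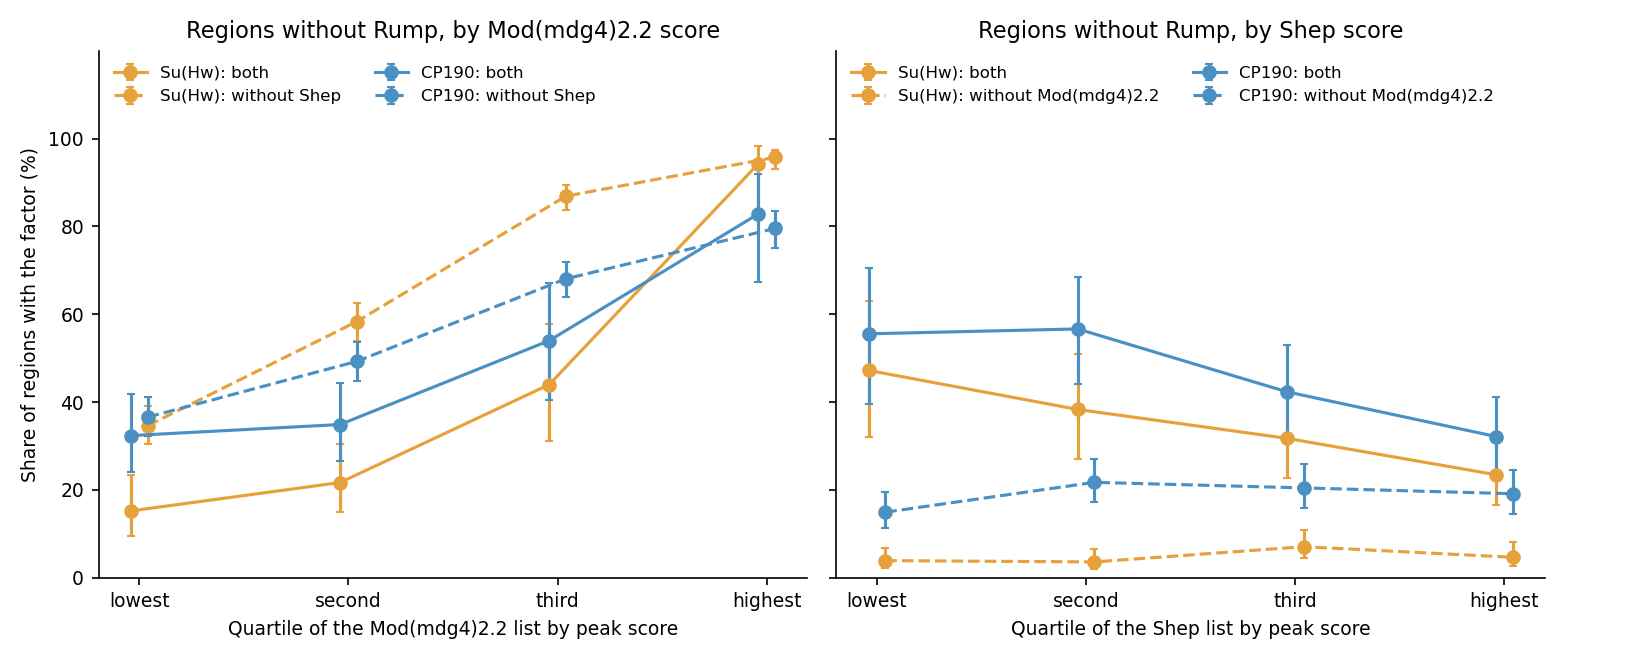
Share of regions without Rump that hold Su(Hw) (orange) or CP190 (blue), in %, by quartile of the Mod(mdg4)2.2 list (left) and of the Shep list (right), for regions with both Shep and Mod(mdg4)2.2 (solid) and for those without the partner (dashed). Bars are Wilson 95% intervals. On the left the solid Su(Hw) line runs from 15.2% to 94.3%, below the dashed line until the highest quartile, and on the right it runs from 47.2% down to 23.5% (35.7% and 21.6% without the joined regions, which the plot includes).

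Shep and Mod(mdg4)2.2 peaks lay close together in most shared regions. The median distance between the nearest midpoints of the 2 proteins was 96.0 bp (interval 80 to 108, quartiles 37.8 and 220.2), and in 153 regions (51.7%) it was at most 100 bp. The 304 bp Mod(mdg4)2.2 peak was contained in the 484 bp Shep peak in 140 regions (47.3%). The peaks overlapped directly in 260 regions (87.8%, 83.6 to 91.1), and the other 36 were joined only through a Su(Hw) or CP190 peak. Direct overlap was found in all 134 regions with neither protein, as the merging requires, in 57 of 68 with CP190 only (83.8%, 73.3 to 90.7), in 27 of 35 with Su(Hw) only (77.1%, 61.0 to 87.9) and in 42 of 59 with both (71.2%, 58.6 to 81.2). Among directly overlapping pairs, whose distance the rule limits, the medians were 76.0 bp with neither, 65.0 bp with CP190 only, 94.0 bp with Su(Hw) only and 96.5 bp with both. These differed by less than their intervals. The 36 joined regions had lower Shep scores (median 100, 94.3 to 111) than the 260 direct ones (127, 122 to 136) and higher Mod(mdg4)2.2 scores (121, 78.5 to 202, against 72.8, 66.9 to 79.6).

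**Figure D4:**
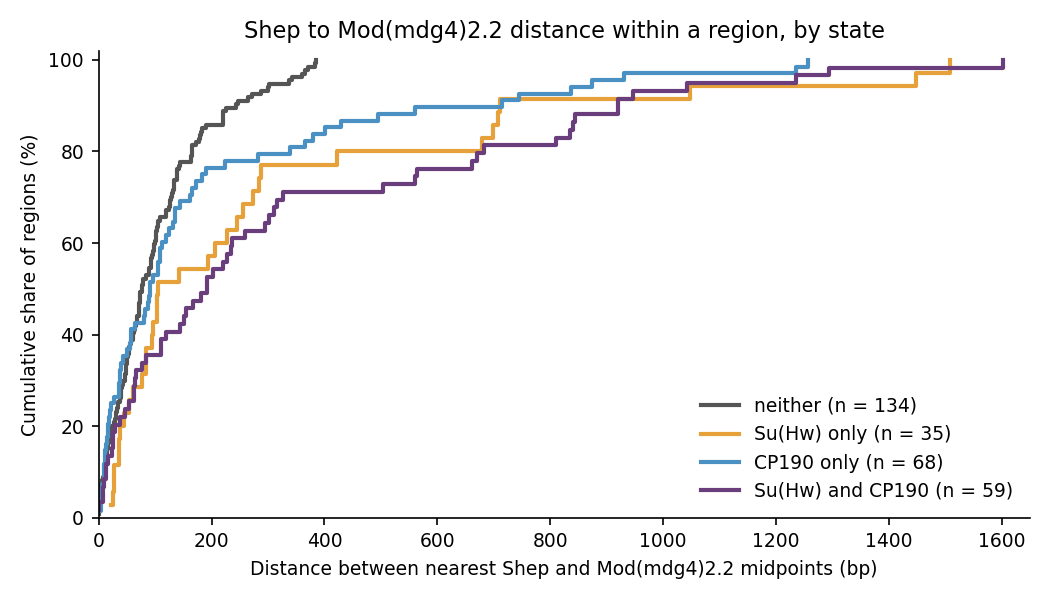
Cumulative share of shared regions (%) by the distance in bp between the nearest Shep and Mod(mdg4)2.2 midpoints, 1 line per state of Su(Hw) and CP190. The line for neither protein ends at 385 bp, the limit being set by direct overlap, whereas the lines of the other states reach 1257 to 1603 bp.

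The rule has its edge at an overlap of 1 bp. The smallest direct overlaps inside the set were 9 bp, between the Shep peak chr2R:8476878-8477361 (score 168) and a Mod(mdg4)2.2 peak of score 46.3, and 11 bp, at the Shep peak chr2R:19468391-19468874 (score 96.8) and a Mod(mdg4)2.2 peak of score 82.7. The region of the latter pair does not rest on it, since its largest overlap was 298 bp. In chr3L:11545930-11546706 (Shep score 199, Mod(mdg4)2.2 score 78.4) the largest overlap was itself 11 bp. Just outside the set were the Shep peaks chr2R:16158346-16158829 (score 82.8), 17 bp from a Mod(mdg4)2.2 peak of score 49.5, and chr3R:13947050-13947533 (score 83.9), 43 bp from one of score 48.0. In all, 22 Shep peaks in regions without Rump had a Mod(mdg4)2.2 peak within 500 bp and lay outside the set. Coordinates are those of build dm3, counted from 1.

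Positions relative to the Su(Hw) and CP190 peaks were compared in the regions with 1 peak of each protein present. At CP190 peaks without Su(Hw), and at Su(Hw) peaks with CP190, Mod(mdg4)2.2 sat nearer the middle than Shep did. With CP190 only, the median distance to the CP190 midpoint was 42.0 bp (25.0 to 61.0) for Mod(mdg4)2.2 and 156 bp (110 to 286) for Shep, and Mod(mdg4)2.2 was the closer of the pair in 47 of 57 regions (82.5%, 70.6 to 90.2). With both proteins, Mod(mdg4)2.2 was closer to the Su(Hw) midpoint in 32 of 40 regions (80%, 65.2 to 89.5) and to the CP190 midpoint in 28 of 40 (70.0%, 54.6 to 81.9). With Su(Hw) only the order was less clear. Mod(mdg4)2.2 was closer in 18 of 26 regions (69.2%, 50 to 83.5) and, counting the regions with several peaks of a protein, in 21 of 35 (60%, 43.6 to 74.4). Without the joined regions the shares were 38 of 48 with CP190 only (79.2%, 65.7 to 88.3), 20 of 28 for Su(Hw) in regions with both (71.4%, 52.9 to 84.7), 18 of 28 for CP190 in regions with both (64.3%, 45.8 to 79.3) and 11 of 19 with Su(Hw) only (57.9%, 36.3 to 76.9). The last 2 intervals included an equal split.

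At Su(Hw) peaks, the Mod(mdg4)2.2 peak of a shared region was more often away from the middle than in regions without Shep. The rule itself uses positions, since Mod(mdg4)2.2 must overlap a Shep peak or be joined to it. With Su(Hw) only, Shep peaks of regions without Mod(mdg4)2.2 also lay off the middle (median 431 bp). The choice of regions can thus shift Mod(mdg4)2.2, also without the joined regions, so the differences are a description. With Su(Hw) only, Mod(mdg4)2.2 lay within 100 bp of the Su(Hw) midpoint in 10 of 26 shared regions (38.5%, 22.4 to 57.5) and in 355 of 462 Mod(mdg4)2.2 regions without Shep (76.8%, 72.8 to 80.5), a difference of -38.4 points (-54.8 to -18.9). The medians were 162 bp and 36.5 bp. With both Su(Hw) and CP190, the shares within 100 bp of the Su(Hw) midpoint were 47.5% of 40 and 71.9% of 637 (difference -24.4 points, -39.3 to -8.97). Without the joined regions these differences were -34.7 points (-54.0 to -12.7, 19 regions) and -32.6 points (-48.7 to -14.0, 28 regions). The Su(Hw) peaks themselves were of like width in the first comparison, with medians of 2044 bp (quartiles 1125 and 2407) in the 26 shared regions and 2100 bp (2024 and 2242) in the 462 others, with a lower first quartile in the shared regions. By Mod(mdg4)2.2 score, the shares were 46.7% of 15 against 72.9% of 247 in the lower 50% of the list and 27.3% of 11 against 81.4% of 215 in the upper 50%. For CP190, within 100 bp of the CP190 midpoint lay 73.7% of 57 shared regions with CP190 only and 80.7% of 285 without Shep (-7.02 points, -20.3 to 3.86), and 70.0% of 40 against 84.1% of 637 with both proteins (-14.1 points, -29.8 to -1.84). Without the joined regions the latter was -2.00 points (-19.9 to 8.43). Whether Su(Hw) and CP190 differ in this respect was not tested. The Shep peaks were compared likewise with those of Shep regions without Mod(mdg4)2.2. Within 100 bp of the Su(Hw) midpoint lay 19.2% of 26 and 19.4% of 31 with Su(Hw) only (difference -0.124 points, -20.2 to 21.1), and within 100 bp of the CP190 midpoint 29.8% of 57 and 26.5% of 170 with CP190 only (3.35 points, -9.15 to 17.6). With both proteins, Shep lay within 100 bp of the Su(Hw) midpoint in 15.0% of 40 shared regions and 20% of 15 others (-5.00 points, -31.4 to 14.1), and of the CP190 midpoint in 37.5% and 13.3% (24.2 points, -3.74 to 42.4). All 4 intervals included 0. Without the joined regions the last difference was 33.1 points (3.29 to 53.3), which rests on 28 regions against 15, and the other 3 intervals still included 0.

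**Figure D5:**
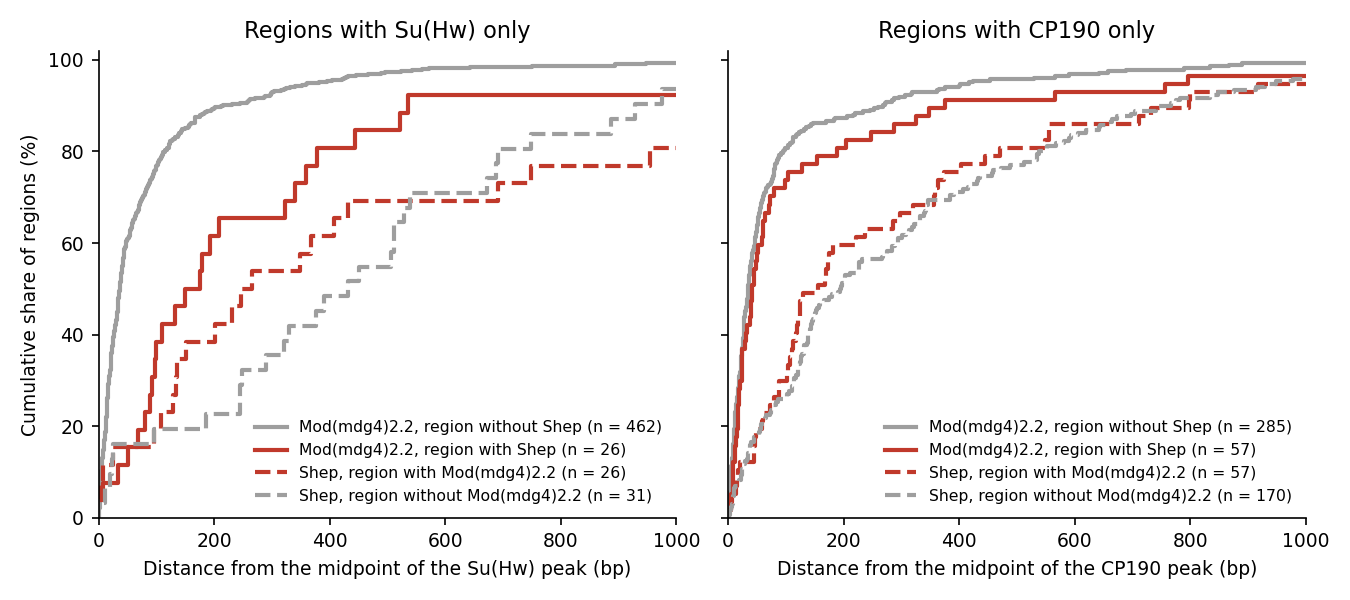
Cumulative share of regions (%) by the distance in bp from the midpoint of the Su(Hw) peak (left, regions with Su(Hw) only) or the CP190 peak (right, regions with CP190 only) to the midpoint of the Mod(mdg4)2.2 peak (solid) or the Shep peak (dashed), in shared regions (red) and in regions without the partner (grey), drawn to 1000 bp. On the left the red solid line lies below the grey solid one, with 38.5% against 76.8% within 100 bp, and on the right the 2 solid lines run close together.

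The members with the highest scores show these states singly. With neither Su(Hw) nor CP190, the 3 highest Shep scores were 247 at chr3L:19625817-19626300, 239 at chr3R:11983640-11984123 and 237 at chr2R:4332053-4332536. Their Mod(mdg4)2.2 scores were low, at 63.2, 76.0 and 57.1, although the midpoints of the 2 peaks were only 15, 4 and 50 bp apart and each Mod(mdg4)2.2 peak lay wholly inside the Shep peak. The 3 highest Mod(mdg4)2.2 scores in that state were 171 at chrX:18298326-18298849, 153 at chr3L:14267216-14267748 and 135 at chr3R:565219-565702, with Shep scores of 138, 108 and 113. No region was among the top 3 of both proteins there.

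With Su(Hw) only, the highest Shep score of all shared regions, 265, was found at chr3R:132655-134230, where the Mod(mdg4)2.2 score was 112 and the midpoints were 38.0 bp apart. It was followed by 227 at chr3R:7393307-7395547, a region with 2 Mod(mdg4)2.2 peaks and a Mod(mdg4)2.2 score of 233, and by 187 at chr3L:7149312-7151562. Thus chr3R:7393307-7395547 was high in both. The highest Mod(mdg4)2.2 score of the state, 334 at chr3R:12135114-12137313, stood beside a Shep score of 92.5 with a q of 0.0685, and the 2 peaks did not overlap, their midpoints being 698 bp apart. The second, 257 at chr3R:7025957-7028783, had a Shep score of 119. That region held 2 Mod(mdg4)2.2 peaks, and the nearest to Shep, of either score, was 104 bp away. The third, 242 at chr2R:5749243-5752069, again had a weak Shep peak (88.0, q of 0.103) at 708 bp.

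With CP190 only, the highest Shep scores were 247 at chr3R:17444012-17446689, 244 at chr3R:19856695-19858537 and 233 at chr2L:16286788-16289278, with Mod(mdg4)2.2 scores of 104, 70.8 and 80.1. In the last of these, 2 Shep and 2 Mod(mdg4)2.2 peaks were present. The highest Mod(mdg4)2.2 scores were 235 at chr2R:8339487-8341636, where the Shep score was 162, then 231 at chr2R:9230890-9232972 and 163 at chr3R:26886144-26888327, where the Shep scores were 112 and 91.7. The second of these pairs missed direct overlap by 7 bp and was joined by the CP190 peak.

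With both proteins, the highest Shep scores were 217 at chrX:3997263-4001079, 208 at chr3R:10956684-10958795 and 199 at chr2R:15613188-15617706. The first had a Mod(mdg4)2.2 score of 222, so that both scores were in the top quartile of their lists, and the other 2 had 95 and 49.8. The highest Mod(mdg4)2.2 score of all shared regions, 350.3, was at chr3R:2737033-2739597, beside a Shep peak of 87.4 with a q of 0.111 that it did not overlap. It was followed by 327 at chr3R:9539193-9541763 (Shep score 101) and 321 at chr3R:793491-800357 (Shep score 138). The last was the widest shared region, at 6867 bp, with 4 Mod(mdg4)2.2, 1 Su(Hw) and 2 CP190 peaks.

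Along the chromosomes, 84 shared regions lay on 3R (28.4%), 71 on 2R (24.0%), 51 on X (17.2%, 13.4 to 21.9), 49 on 3L (16.6%) and 41 on 2L (13.9%). None lay on chromosome 4 or on heterochromatic or unplaced sequence, and a count of 0 allows a share of up to 1.01% for each. Chromosome 4 held 7 Shep regions and 10 Mod(mdg4)2.2 regions without Rump, each without the other protein. The shared regions took up 18.8% of the Mod(mdg4)2.2 regions without Rump on 2R (15.2 to 23.1) and 11.3% (8.46 to 15.0) to 15.2% (12.5 to 18.5) on the other 4 arms, and 19.8% to 23.4% of the Shep regions without Rump on the 5 arms. Regions with Su(Hw) only were found on 4 of the 5 arms but not on 2L, where 0 of 41 allows up to 7.32%. Their share was highest on 3R (16.7% of 84) and lowest of the other arms on X (7.84% of 51). The interval on X (3.09 to 18.5) overlapped that on 2L (0 to 8.57). Su(Hw) with or without CP190 was at 29.3% of the regions on 2L and at 27.5% to 34.5% on the other arms. The share with neither protein ran from 41.2% on X to 51.0% on 3L, with overlapping intervals.

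The spacing of the shared regions is given as a description, and clustering was not tested. The median distance from one to the nearest other was 124255 bp (quartiles 40031 and 227772), and 27 of 296 (9.12%) had another within 10 kb. Of the 100 kb windows that held any, 223 held 1, 29 held 2, 1 held 3 and 3 held 4. The 3 with 4 were chr2R:9800001-9900000, where 3 of the 4 had both Su(Hw) and CP190, chr2R:14200001-14300000 and chr3R:5200001-5300000, where 3 of the 4 had neither. The nearest Rump peak was a median of 101312 bp away, and 31 regions (10.5%) had one within 10 kb. The 3 nearest were chr2R:12755734-12758033 at 1416 bp, a region with both proteins, chr2L:128949-129505 at 1648 bp, with neither, and chr3L:2162836-2164566 at 2278 bp, with Su(Hw) only. Regions with neither protein were nearer to the other lists than to Rump. The nearest Su(Hw) peak was a median of 12716 bp from them (quartiles 4100.2 and 24788) and the nearest CP190 peak 11706 bp (3438 and 24249). Of the 134, 44.0% had a Su(Hw) peak and 47.0% a CP190 peak within 10 kb, against 14.2% with a Rump peak (a list of 338 peaks, against 2369 and 2742), and the smallest gaps were 57 bp to Su(Hw) and 0 bp, a touching peak, to CP190.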

How the data were processed

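The 5 ChIP-seq peak lists from Kc167 cells, 1 per protein, were used as the authors deposited them. Per the submitters' processing notes, Bowtie 0.12.8, Picard 1.77, bedtools 2.17.0, Trimmomatic 0.20 and cutadapt 1.1 were used on build dm3. Not given in the sources used here are the caller of the peaks and its settings, how the libraries of 2 antibodies became 1 list, and the scale of the score. In the lists of Rump, Mod(mdg4)2.2 and Shep the deposited signal of each peak (seventh column) was read as the score, and the deposited −log10 q-value (ninth column) was turned into q. The highest q was 0.00624 for Mod(mdg4)2.2 and 0.156 for Shep. The Su(Hw) and CP190 lists, as the authors deposited them, hold positions only.

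Peaks overlapping by at least 1 bp were merged, and each region took the highest score of its peaks. The merging was checked against bedtools 2.31.1 and tested on simulated data. Shares carry Wilson and differences Newcombe 95% intervals. With 1 list per protein no test across replicates exists, regions are not replicates, and no p-value was computed. The members, groups and alternatives were chosen with earlier results of these data known. Regions named are the 3 of highest Shep and of highest Mod(mdg4)2.2 score in each state, the 3 windows with most members, the pairs at the edge of the overlap rule and the 3 nearest to Rump. No sequence or gene annotation of build dm3 was used here. Python 3.11.15, NumPy 2.4.6, pandas 2.3.3, SciPy 1.17.1 and matplotlib 3.10.9 were used.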

Additional observations from a re-analysis of the deposited data

How the results depend on the processing

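Of 142 alternative values of 26 results, 113 stayed within the counting interval of the reported value, or within 1.5 times for counts, and 29 moved. No difference of shares whose interval lay to one side of 0 changed sign. Some such intervals came to include 0 without the joined regions, although the values count as unmoved. These were the falls in Su(Hw) and in CP190 from the lowest to the highest Shep quartile. The lower share of Mod(mdg4)2.2 peaks within 100 bp of the CP190 midpoint, in regions with both proteins, was another. With the top 50% of the Shep and Mod(mdg4)2.2 lists by score, 51 shared regions remained to be counted, with 12, 9, 12 and 18 in the states neither, Su(Hw) only, CP190 only and both. Su(Hw) was then at 52.9%, CP190 at 58.8% and both at 35.3% of them, the excess over Shep regions without Mod(mdg4)2.2 was 44.2 points for Su(Hw) and 36.9 for CP190, 29.4% lay on X, the median scores were 138 for Shep and 138 for Mod(mdg4)2.2, and the median distance was 144 bp. With peaks resized to 300 bp, 20 regions had Su(Hw) only and 24 both proteins, the shares were 17.1% with Su(Hw), 29.2% with CP190 and 9.34% with both, the excess in Su(Hw) over Shep regions without Mod(mdg4)2.2 was 15.0 points and the median distance 74.0 bp. With Shep peaks that overlap Mod(mdg4)2.2 peaks directly as the unit, the difference in Su(Hw) was -41.7 points against Mod(mdg4)2.2 peaks and 20.5 against Shep peaks, that in CP190 against Shep peaks was 16.7, and the median Mod(mdg4)2.2 score was 69.3. Counting only the Shep peaks with q at most 0.05, the median Shep score was 132. Within quartiles of Mod(mdg4)2.2 score, the difference in Su(Hw) was -27.4 points. Without the 36 joined regions, a comparison chosen after seeing the data, Su(Hw) was at 26.5% and the median distance was 79.5 bp. Cutting a list by score or q keeps higher scores by choice. Leaving out the joined regions removes the pairs that do not overlap, which shortens the median distance. The cause of these shifts was not otherwise tested. Joining peaks up to 500 bp apart, asking for an overlap of 100 bp, and using the arms and chromosome 4 alone moved no result. All shared regions lie on the arms, so the last of these settings could change only the groups they were compared with. No paired analysis was possible because each list already pools its 2 libraries or rests on 1, and no library could be left out for the same reason. The number of reads is unknown, so a missing peak says only that none was called in that list, and 61 of the 314 Shep peaks in shared regions have a q above 0.05.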
